A study of Mus musculus with 18 samples.

Results

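The genes described here are the peroxisome proliferator-activated receptor alpha (PPARalpha, encoded by Ppara) with a set of its targets and the enzymes of fatty acid oxidation, measured on microarrays of mouse small intestine and liver. They were chosen by name, 31 genes in all, and 30 of them had at least 1 array probe set annotated to that gene alone, out of 22180 genes with such a probe set. Cyp4a10 had none, since its 2 probe sets also name other genes, so it is not described. Every recipient was a C57BL/6 mouse raised without microbes and given gut microbiota at 5 to 6 weeks of age. OMT recipients received it from old donors, aged 2 years or about 24 months by different labels. YMT recipients received it from young donors, whose age the labels give as 4 weeks or as 5 to 6 weeks. Tissue was taken 8 weeks after the transfer, at a stated age of 12 or 13 weeks. Each tissue has 5 OMT and 4 YMT arrays, 1 for each biological replicate. The question stated in the labels is how metabolism in these tissues compares between OMT and YMT recipients. The labels do not give the number of donors or cages, so donor age and a shared donor or cage cannot be told apart.

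PPARalpha is a nuclear receptor that is activated by fatty acids and binds DNA as a dimer with a retinoid X receptor. In liver it drives the oxidation of fatty acids and the making of ketone bodies during fasting, and in the small intestine it responds to dietary fat. Long-chain fatty acids enter mitochondria as carnitine esters and are shortened there step by step. Very long and branched chains are first shortened in peroxisomes, and cytochromes of the Cyp4a family oxidise the far end of the chain in the endoplasmic reticulum. Below, a level is a log2 array value and a difference is OMT minus YMT on the log2 scale with its standard error (SE). A gene is said to have risen or fallen where limma's test, with Benjamini-Hochberg adjustment over every gene tested in the tissue, gave an adjusted p under 0.05. Levels are not compared between genes, because each probe set responds differently.

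Upstream sequences are shown for 4 of the genes. Pdk4 had the greatest rise in intestine, Acadm rose in liver, and Acaa1b fell in liver while its close copy Acaa1a did not pass. They are the 250 bases before the annotated start in RefSeq (build GRCm38.p6), written 5′ to 3′ on the gene's strand. Capitals mark the 13 bases nearest to the consensus PPAR response element, 2 copies of AGGTCA with any 1 base between them, read on either strand. Where stretches tied, the gene's strand and then the first stretch was taken, so an unmarked stretch can be as near.
Pdk4, chr6:5496279-5496528, - strand: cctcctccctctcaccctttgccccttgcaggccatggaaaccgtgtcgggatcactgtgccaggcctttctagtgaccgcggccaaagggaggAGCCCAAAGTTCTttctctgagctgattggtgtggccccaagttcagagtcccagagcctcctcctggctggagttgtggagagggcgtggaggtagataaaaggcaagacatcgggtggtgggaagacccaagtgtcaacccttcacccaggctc
Acaa1b, chr9:119157094-119157343, - strand: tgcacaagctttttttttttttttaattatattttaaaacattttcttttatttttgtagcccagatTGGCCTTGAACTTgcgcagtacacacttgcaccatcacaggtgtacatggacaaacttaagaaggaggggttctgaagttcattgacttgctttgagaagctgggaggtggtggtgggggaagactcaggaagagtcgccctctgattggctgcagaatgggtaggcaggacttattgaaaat
Acaa1a, chr9:119341044-119341293, + strand: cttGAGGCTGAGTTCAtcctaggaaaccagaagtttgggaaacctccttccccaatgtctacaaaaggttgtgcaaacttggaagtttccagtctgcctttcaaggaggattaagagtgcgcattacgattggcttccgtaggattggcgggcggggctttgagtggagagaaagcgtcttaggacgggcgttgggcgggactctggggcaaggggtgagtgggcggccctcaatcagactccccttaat
Acadm, chr3:153944644-153944893, - strand: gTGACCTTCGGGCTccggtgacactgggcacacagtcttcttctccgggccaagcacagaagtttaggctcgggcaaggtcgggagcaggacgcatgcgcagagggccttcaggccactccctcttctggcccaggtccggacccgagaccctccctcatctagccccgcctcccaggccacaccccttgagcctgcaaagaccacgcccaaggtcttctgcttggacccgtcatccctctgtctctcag

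RefSeq upstream windows were found for 23 of the genes. None of the 23 held the element exactly or with 1 or 2 mismatches on either strand. Among 27025 genes with such a window, 0.0407% held it exactly, 0.566% with up to 1 mismatch and 3.72% with up to 2. With shares this low, 23 genes are too few for the lack of a match to be read as a result. Bases outside the 250 were not searched, so the genes cannot be said to lack an element. With up to 3 mismatches, a limit added after seeing the data, Acadm, Bdh1 and Hadh held a site, or 13.0% of the 23, against 23.7% of all genes. The marked bases differ from the element at 4 letters in Pdk4 and Acaa1b, 5 in Acaa1a and 3 in Acadm. A single AGGTCA, on either strand, was present in Acadm, Acadvl and Cpt1a, or 13.0% of the 23, and in 15.8% of all genes. Hadha and Hadhb, which encode the subunits of the mitochondrial trifunctional protein, start 273 bases apart on opposite strands of chromosome 5.

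The tissue labels were borne out by marker genes. The mean level of 11 villus enterocyte markers was 11.57 to 11.84 on OMT and 11.40 to 11.89 on YMT intestine arrays, and that of 7 hepatocyte markers was 12.36 to 12.40 on OMT and 12.31 to 12.37 on YMT liver arrays. In intestine, small nucleolar RNA probe sets averaged 6.10 to 7.31 in OMT and 6.11 to 6.49 in YMT, with OMT replicates 1 and 2 at 7.31 and 6.93. In liver, OMT replicates 1 and 2 stood apart from the other 3 OMT arrays for most of the genes described here. Total counts of calls in liver are therefore given with and without them, and counts by role with all arrays only. What set these arrays apart was not tested.

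In the small intestine, 5 of the 28 genes tested rose in OMT recipients and 1 fell. Of all 13238 genes tested, 1.04% rose and 3.10% fell, 4.14% in all. The rises were those of Pdk4, Angptl4, Acaa2, Pex11a and Slc22a5, and the fall was that of Bdh1. In 6 of the 28, every OMT array lay above every YMT array, which held for 2.80% of all genes, and in 1 every OMT array lay below, which held for 6.84%. The median difference over the 28 was 0.11, against -0.02 over all genes. Hadhb and Cyp4a14 were above the median of all probe sets on fewer than 4 of 9 intestine arrays and were not tested there. Cyp4a14 read 2.87 to 3.86 in OMT and 3.40 to 3.95 in YMT.

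Pdk4 encodes a kinase that switches off pyruvate dehydrogenase and so spares glucose when fat is burned. Its levels on OMT intestine arrays were 7.99, 7.17, 7.19, 7.76 and 6.04, against 4.38, 4.87, 4.88 and 4.72 on YMT arrays. The groups did not overlap, and the lowest OMT array was replicate 5. The difference was 2.52 ± 0.33 (adjusted p = 0.00548). The YMT levels were near the array medians of 4.39 to 4.45, and 3 of the 4 YMT arrays exceeded their median, so no fold is given.

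Angptl4, a secreted inhibitor of lipoprotein lipase, had levels of 7.82, 7.56, 8.34, 9.08 and 8.21 on OMT arrays, against 6.56, 6.51, 5.75 and 6.44 on YMT arrays. All OMT arrays were above all YMT arrays, and YMT replicate 3 was the lowest. The difference was 1.89 ± 0.29, a 3.70-fold rise (adjusted p = 0.00830).

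**Figure D1:**
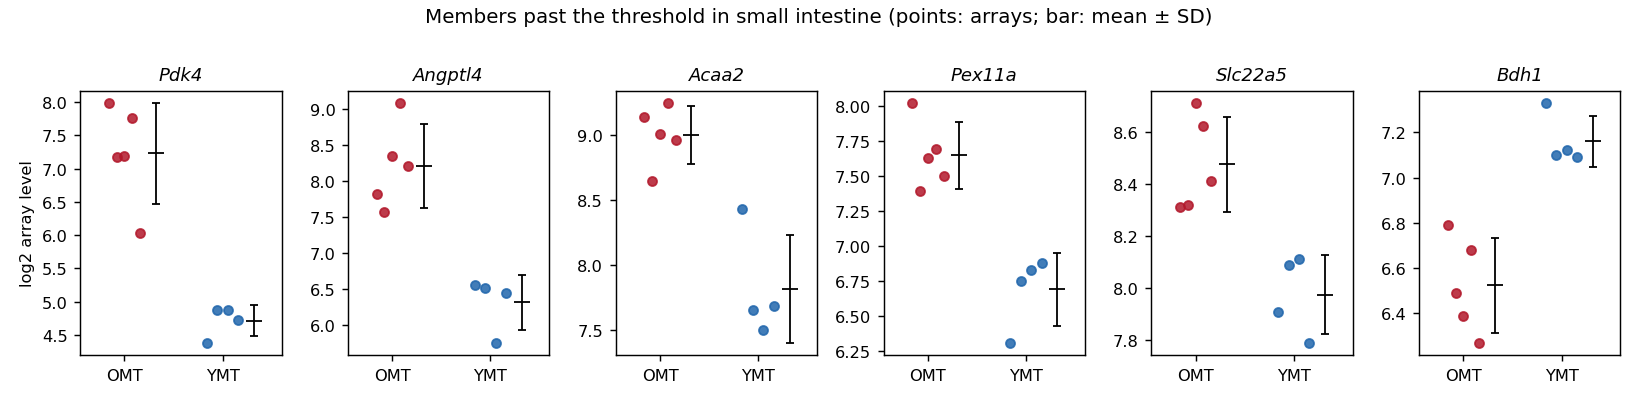
Log2 array level (vertical axes, each panel on its own scale) of the 6 genes past the threshold in small intestine, with 5 OMT arrays left and 4 YMT arrays right. Points are arrays and bars are mean ± SD. In all 6 panels the groups are apart, above in OMT for Pdk4, Angptl4, Acaa2, Pex11a and Slc22a5 and below for Bdh1.

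Among the enzymes of mitochondrial beta-oxidation, 1 of 10 tested rose in intestine and none fell, while 1.04% of all genes rose and 3.10% fell. The rise was that of Acaa2, the thiolase that releases acetyl-CoA in the last step of the mitochondrial cycle. Acaa2 had 9.14, 8.65, 9.01, 9.25 and 8.96 on OMT arrays and 8.43, 7.65, 7.50 and 7.68 on YMT arrays. YMT replicate 1 was the nearest to the OMT arrays, and the difference was 1.19 ± 0.19, 2.28-fold higher in OMT (adjusted p = 0.00965). The other 9 had differences from -0.24 for Decr1, a reductase for unsaturated chains, to 0.44 for Acadl, the long-chain acyl-CoA dehydrogenase. Acadl spread widely, over 8.97 to 10.25 in OMT and 9.01 to 9.57 in YMT (0.44 ± 0.24, adjusted p = 0.299). Acadm, the medium-chain dehydrogenase, was at 9.85 ± 0.13 in OMT and 9.87 ± 0.13 in YMT (SD, n = 5 and 4), and limma gave an adjusted p of 0.935. Hadh, the short-chain hydroxyacyl-CoA dehydrogenase, lay between 11.31 and 11.46 in OMT and between 11.25 and 11.44 in YMT. The trifunctional subunit Hadha (0.10 ± 0.10), Acadvl for very long chains (0.05 ± 0.08), Acads for short chains (-0.11 ± 0.14), Eci1 (-0.16 ± 0.09), an isomerase, and Etfdh (-0.08 ± 0.09), which passes electrons to the respiratory chain, did not pass. The Hadhb probe set read 3.91 to 4.16 in OMT and 4.07 to 4.22 in YMT, below the array medians.

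Of 5 genes for carnitine transfer, Slc22a5, the carnitine importer of the plasma membrane, rose in intestine (20.0%, against 1.04% of all genes). It had 8.31, 8.32, 8.71, 8.62 and 8.41 in OMT and 7.91, 8.09, 8.11 and 7.79 in YMT, with a difference of 0.50 ± 0.11 (adjusted p = 0.0338). The gap between the groups was small, and the call was lost when any of 7 single arrays was left out, namely OMT replicates 2, 3, 4 and 5 and YMT replicates 1, 2 and 4 (adjusted p of 0.0952 at most over all alternatives). It was also lost with no filter (adjusted p = 0.0559), with median centring (adjusted p = 0.0553) and with the replicate block (adjusted p = 0.0697). Cpt2, which turns acylcarnitine back into acyl-CoA inside mitochondria, was at 0.39 ± 0.12 (adjusted p = 0.0940). Slc25a20, the exchanger of the inner membrane, was at 0.22 ± 0.11, and Crat, which makes acetylcarnitine, at 0.12 ± 0.10. Cpt1a, the rate-limiting entry step, was at 8.16, 8.02, 8.46, 8.50 and 8.34 in OMT and 9.50, 8.71, 8.29 and 8.53 in YMT. YMT replicate 1 was far above the other arrays, and the difference of -0.46 ± 0.22 did not pass (adjusted p = 0.236).

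Of 8 peroxisomal genes, Pex11a rose in intestine (12.5%, against 1.04% of all genes). It encodes a membrane protein that makes peroxisomes elongate and divide. Pex11a had 8.02, 7.39, 7.63, 7.69 and 7.50 in OMT, against 6.31, 6.75, 6.83 and 6.88 in YMT, a difference of 0.95 ± 0.15 or 1.94-fold (adjusted p = 0.00908). The groups did not overlap. Acaa1b, 1 of the peroxisomal thiolase copies, had 7.07, 6.19, 6.46, 6.04 and 6.04 in OMT and 6.00, 5.70, 5.82 and 5.49 in YMT. Its groups did not overlap either, but the difference of 0.61 ± 0.20 did not pass (adjusted p = 0.116). The bifunctional enzymes Ehhadh (-0.27 ± 0.12) and Hsd17b4 (0.22 ± 0.19), the thiolase Acaa1a (0.38 ± 0.18), and the auxiliary enzymes for unsaturated chains Decr2 (-0.52 ± 0.16), Eci2 (0.28 ± 0.11) and Ech1 (0.08 ± 0.12) did not pass.

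The ketone body enzyme of the set, Bdh1, interconverts acetoacetate and beta-hydroxybutyrate. It fell in the OMT intestine, with 6.79, 6.49, 6.39, 6.68 and 6.27 in OMT and 7.33, 7.10, 7.12 and 7.09 in YMT. Every OMT array was below every YMT array, and the difference was -0.64 ± 0.11 (adjusted p = 0.0162). Without YMT replicate 2 the call was lost at an adjusted p of 0.0513. Ppara itself had 7.30, 7.07, 7.19, 6.74 and 6.75 in OMT and 6.75, 6.61, 6.51 and 6.48 in YMT. The groups met at 6.74 and 6.75, and the difference of 0.42 ± 0.13 did not pass (adjusted p = 0.0879). Vnn1, the pantetheinase vanin, was at 10.13 ± 0.18 in OMT and 10.25 ± 0.31 in YMT (SD, n = 5 and 4).

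Markers of other cells were read on the same intestine arrays. No villus enterocyte marker of 11, smooth muscle marker of 8 or crypt marker of 9 passed in either direction by limma, and 3, 1 and 2 of them had an unadjusted p under 0.05. Above 0 were the differences of 3 villus, 5 smooth muscle and 1 crypt markers (27.3%, 62.5% and 11.1%, against 45.1% of all genes). Median differences were -0.06, 0.05 and -0.38 in that order. Every OMT array lay below every YMT array for the villus markers Mep1a and Mep1b and the crypt marker Axin2, which held for 6.84% of all genes. Of 6 adipocyte markers with a probe set 3 were tested, none passed and none had an unadjusted p under 0.05, with list means of 4.13 to 4.29 in OMT and 4.07 to 4.25 in YMT and adiponectin (Adipoq) under the level filter in both. All 8 T cell and NK cell markers had a difference below 0, 7 with an unadjusted p under 0.05, and 2 fell, Gzma and Gzmb, with list means of 6.72 to 7.33 in OMT and 7.30 to 7.97 in YMT. The part of these cells in the results was not tested. In whole tissue, fewer cells of a type and less RNA per cell cannot be told apart.

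In the liver, 6 of the 29 genes tested rose in OMT recipients and 4 fell. The rises numbered 2 without OMT replicate 5 or YMT replicates 1, 2 or 4, and 9 without OMT replicate 1, while the falls numbered 4 whichever array was left out. Of all 13380 genes tested, 10.4% rose and 8.78% fell, 19.2% in all, as 1388 rises and 1175 falls. With quantile normalization within the tissue there were 1156 rises and 1492 falls. The rises were those of Cyp4a14, Crat, Acadm, Ech1, Slc22a5 and Cpt2. The falls were those of Acaa1b, Angptl4, Ehhadh and Bdh1. The median difference over the 29 was 0.10, against -0.005 over all genes. In 5 of the 29 every OMT array was above every YMT array (9.64% of all genes), and in 5 every OMT array was below (8.51%).

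**Figure D2:**
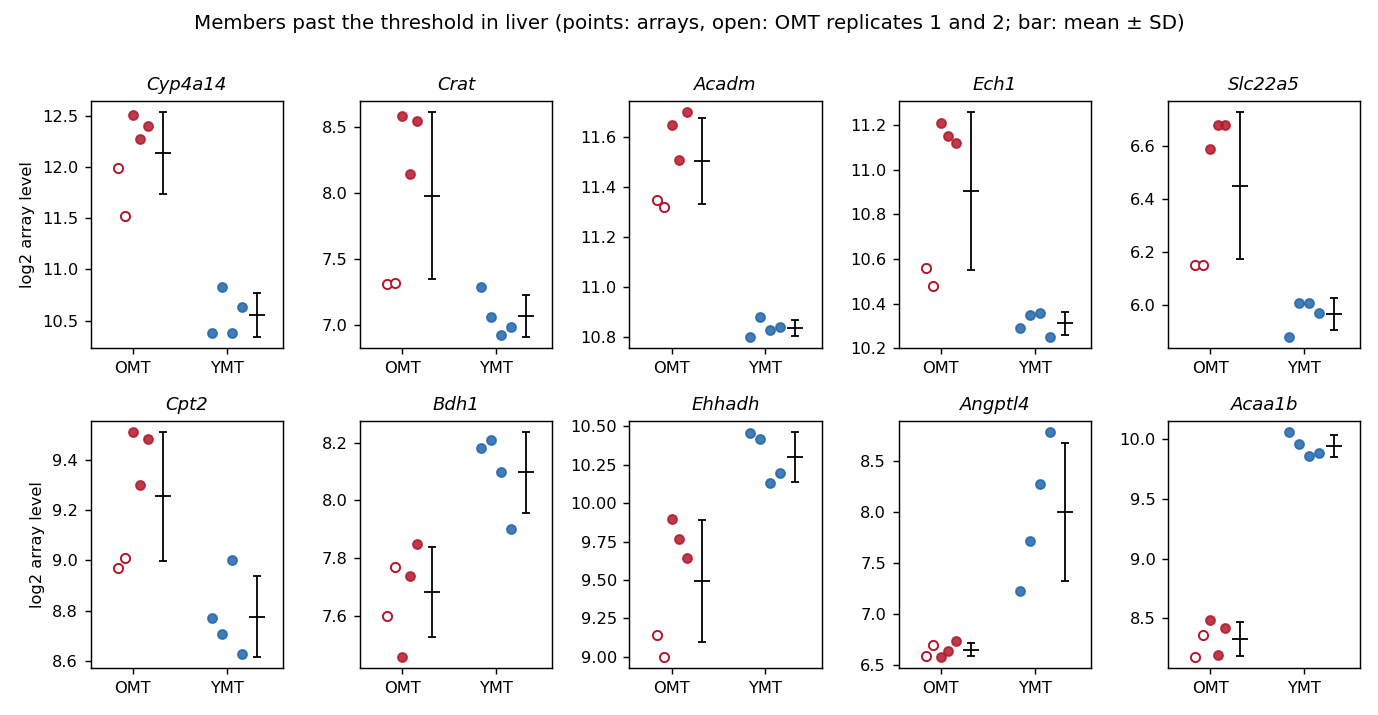
Log2 array level (vertical axes, each panel on its own scale) of the 10 genes past the threshold in liver, with 5 OMT arrays left and 4 YMT arrays right. Points are arrays, open circles are OMT replicates 1 and 2, and bars are mean ± SD. Among the rises the open circles are the lowest OMT points, and for Cpt2 that of replicate 1, at 8.97, lies below the highest YMT point, at 9.0.

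Carnitine transfer held 3 of the 6 rises, out of 5 genes, while 10.4% of all genes rose in liver. Crat had 7.31, 7.32, 8.58, 8.14 and 8.54 in OMT livers, against 7.29, 7.06, 6.93 and 6.99 in YMT livers. OMT replicates 1 and 2 were barely above the highest YMT liver and the other 3 were well above it. The difference was 0.91 ± 0.27, 1.88-fold (adjusted p = 0.0371), and it was lost when any array other than OMT replicate 1 or 2 was left out. Averaging the probe sets of Crat gave 0.47 and no call, so its probe sets do not read alike. Slc22a5 had 6.15, 6.15, 6.59, 6.68 and 6.68 in OMT and 5.88, 6.01, 6.01 and 5.97 in YMT (0.48 ± 0.13, adjusted p = 0.0231). Its groups did not overlap. Cpt2 had 8.97, 9.01, 9.51, 9.30 and 9.48 in OMT and 8.77, 8.71, 9.0 and 8.63 in YMT (0.48 ± 0.13, adjusted p = 0.0270), with OMT replicate 1 below YMT replicate 3. Slc25a20 (0.49 ± 0.19, adjusted p = 0.100) and Cpt1a (0.18 ± 0.16, adjusted p = 0.487) did not pass. The calls of Slc22a5 and Cpt2 were both lost without OMT replicate 5 or YMT replicates 1, 2 or 4, and that of Cpt2 also without OMT replicate 3. Median centring ended the call of Cpt2 (adjusted p = 0.0514), and quantile normalization (adjusted p = 0.0532) and the replicate block (adjusted p = 0.0650) ended that of Slc22a5.

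Of 10 mitochondrial beta-oxidation genes, Acadm rose in liver and none fell, while 10.4% of all genes rose and 8.78% fell. The count of rises is thus no more than the share of all genes would give. The levels of Acadm were 11.35, 11.32, 11.65, 11.51 and 11.70 in OMT, against 10.80, 10.88, 10.83 and 10.84 in YMT. The YMT livers were nearly equal and every OMT liver was above them. The difference was 0.67 ± 0.09, 1.59-fold (adjusted p = 0.000610). Acadl was at 0.39 ± 0.14 (adjusted p = 0.0775), Hadh at 0.21 ± 0.09, Hadha at 0.13 ± 0.16, Acadvl at 0.13 ± 0.12 and Etfdh at 0.09 ± 0.15. Values below 0 were found for Acads (-0.05 ± 0.08), Eci1 (-0.11 ± 0.20), Acaa2 (-0.13 ± 0.07) and Decr1 (-0.18 ± 0.15). Acaa2 was lower on every OMT liver, at 10.67 to 10.89, than on the YMT livers, at 10.92 to 10.96, without passing (adjusted p = 0.235). The Hadhb probe set read 3.59 to 4.15 in OMT and 3.08 to 3.32 in YMT, below the array medians, and was not tested.

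Peroxisomal genes went both ways in liver, with 1 rise and 2 falls among 8, while 10.4% of all genes rose and 8.78% fell. Whether counts this small differ from those shares was not tested. Acaa1b had 8.18, 8.36, 8.49, 8.19 and 8.42 in OMT livers, against 10.06, 9.96, 9.86 and 9.88 in YMT livers. The 2 groups were far apart and each was narrow. The difference was -1.61 ± 0.09, or 3.06-fold lower in OMT (adjusted p = 2.84e-06). Its close copy Acaa1a had 7.67, 7.54, 7.86, 7.88 and 7.99 in OMT and 7.54, 7.68, 7.77 and 7.76 in YMT, which overlapped (0.10 ± 0.10, adjusted p = 0.526). Probe sets of such copies can bind each other's transcripts, so the difference of either is uncertain. The upstream windows of the copies matched at 81 of 240 bases in the best ungapped alignment. That is the best of many offsets and no unrelated windows were aligned, so the count does not show that the windows are alike.

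Ehhadh, the bifunctional enzyme of the peroxisomal cycle for straight chains, had 9.14, 9.0, 9.90, 9.77 and 9.64 in OMT and 10.46, 10.42, 10.13 and 10.20 in YMT. Every OMT liver was lower, most of all replicates 1 and 2 (-0.81 ± 0.18, adjusted p = 0.0103). Without those 2 livers the difference was -0.53 ± 0.11 and still passed (adjusted p = 0.0112). Ech1, a dienoyl-CoA isomerase found in both peroxisomes and mitochondria, rose, with 10.56, 10.48, 11.21, 11.15 and 11.12 in OMT and 10.29, 10.35, 10.36 and 10.25 in YMT. All OMT livers were above, with replicates 1 and 2 the nearest to YMT (0.59 ± 0.16, adjusted p = 0.0226). The call was lost without OMT replicate 5 or YMT replicates 1, 2 or 4. Pex11a (0.51 ± 0.19, adjusted p = 0.0839), Eci2 (0.43 ± 0.16), Decr2 (-0.20 ± 0.14) and Hsd17b4 (-0.05 ± 0.12) did not pass.

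Cyp4a14, a fatty acid omega-hydroxylase that is among the most responsive PPARalpha targets of mouse liver, had 11.99, 11.52, 12.51, 12.28 and 12.40 in OMT livers, against 10.38, 10.83, 10.38 and 10.63 in YMT livers. Every OMT liver was above every YMT liver, and the difference was 1.59 ± 0.19, 3.0-fold (adjusted p = 0.000295). Probe sets of the Cyp4a family can detect each other's transcripts. Angptl4 fell in liver. Its OMT levels were 6.59, 6.69, 6.58, 6.64 and 6.73, and its YMT levels were 7.22, 7.71, 8.27 and 8.78. The OMT livers were nearly equal and the YMT livers spread widely above them (-1.35 ± 0.25, adjusted p = 0.00371). Bdh1 fell as well, with 7.60, 7.77, 7.46, 7.74 and 7.85 in OMT and 8.18, 8.21, 8.10 and 7.90 in YMT (-0.41 ± 0.10, adjusted p = 0.0133). Pdk4 (-0.18 ± 0.12), Vnn1 (-0.37 ± 0.26) and Ppara (-0.15 ± 0.09, adjusted p = 0.295) did not pass. The Vnn1 levels of OMT replicates 1 and 2 were 7.16 and 7.66, while the other OMT livers lay at 8.42 to 8.63 and the YMT livers at 8.39 to 8.49.

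The OMT livers were not alike in these genes. In 24 of the 29 tested (82.8%), replicates 1 and 2 both lay below the other 3 OMT livers, and in none did both lie above. Over all 13380 genes the same order was found for 17.7%, and the opposite order for 16.7%. The 2 arrays had been singled out because they stood apart in the genes described here, so the higher share is partly a matter of construction. The 5 exceptions were Acaa1b, Angptl4, Bdh1, Pdk4 and Ppara. For Eci1 the OMT values were 8.21, 8.17, 9.03, 9.09 and 8.98, on both sides of the YMT values of 8.75, 8.90, 8.78 and 8.81. Hadha likewise had 10.53, 10.48, 11.26, 11.06 and 11.19 in OMT, while the YMT livers lay between 10.76 and 10.78. In intestine the order was found for 3 of 28 genes (10.7%), against 22.0% of all genes tested there. The labels do not say whether the same mouse gave liver and intestine replicates of 1 number.

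**Figure D3:**
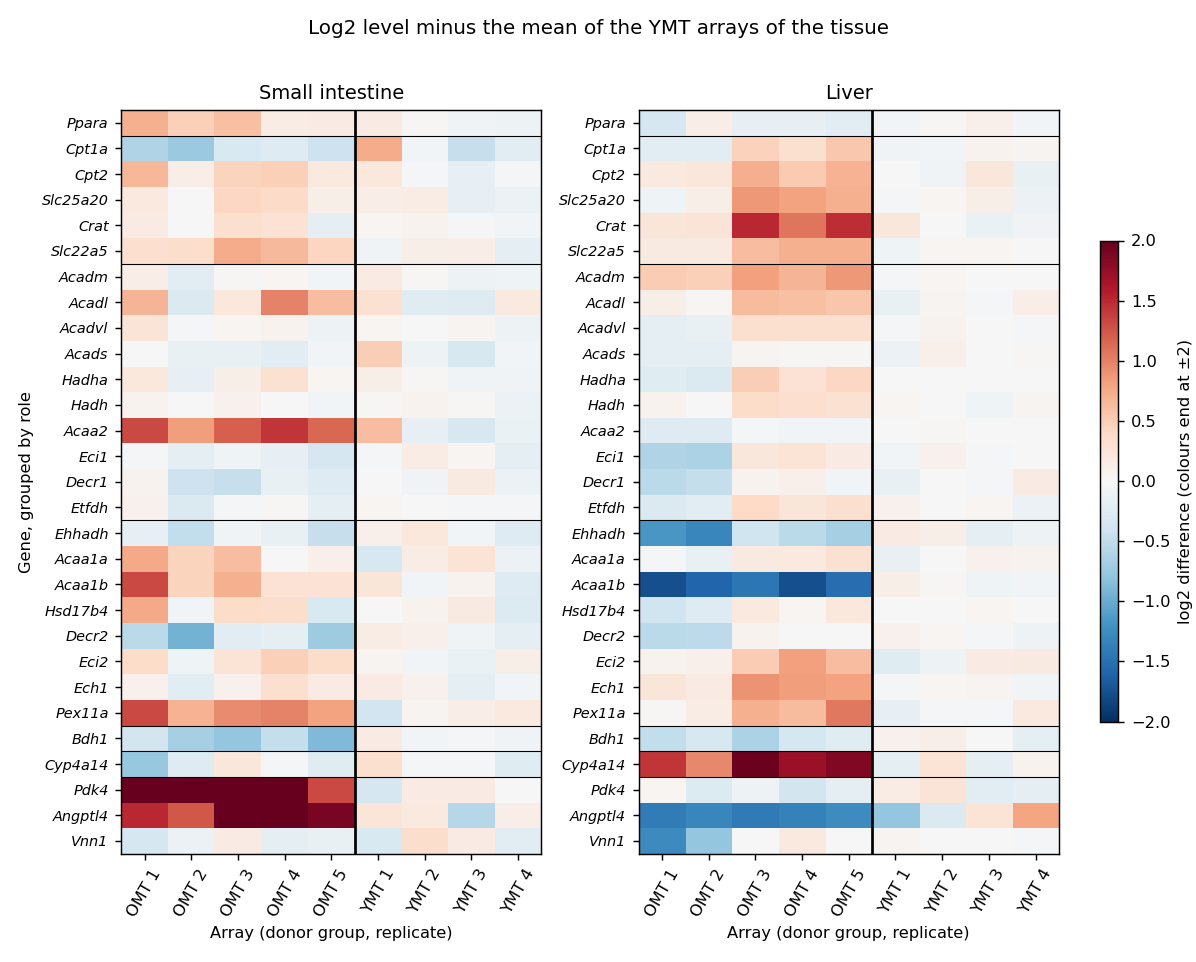
Log2 level minus the mean of the tissue's YMT arrays (colour) for 29 genes in rows, grouped by role, on each array in columns, with OMT arrays left of the line and YMT arrays right of it. In liver, the first 2 OMT columns are paler or bluer than the other 3 in 24 of the rows, while Acaa1b and Angptl4 are blue on all OMT livers. Cyp4a14 is drawn for intestine too, where it was under the level filter.

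Without OMT replicates 1 and 2, 15 of the 29 genes rose in liver and 4 fell, against 8.64% and 7.36% of all genes. These arrays were singled out in earlier results because they stood apart, so a higher count without their low values is partly a matter of construction. The 6 rises were among the 15, and the further 9 were Slc25a20 (0.80 ± 0.08), Pex11a (0.80 ± 0.12), Eci2 (0.65 ± 0.13), Acadl (0.60 ± 0.09), Cpt1a (0.44 ± 0.08), Hadha (0.40 ± 0.08), Hadh (0.33 ± 0.07), Acadvl (0.32 ± 0.07) and Etfdh (0.32 ± 0.08). The falls were again those of Acaa1b, Angptl4, Bdh1 and Ehhadh. The differences of Eci1, Decr1, Decr2, Acads, Hsd17b4 and Vnn1 were below 0 with all livers and above 0 without these 2, passing in neither.

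Markers of other liver cells moved on the same arrays, where 10.4% of all genes rose and 8.78% fell. Of 7 endothelial markers 4 fell (57.1%) in OMT livers, with list means of 6.59 to 6.86 in OMT and 7.06 to 7.34 in YMT. Of 6 stellate cell and fibroblast markers 4 fell (66.7%), with 5.96 to 6.10 in OMT and 6.24 to 6.61 in YMT. Of 7 smooth muscle markers tested 3 fell (42.9%), with 4.65 to 4.84 in OMT and 4.87 to 5.14 in YMT. Of 7 hepatocyte markers 1 rose, Apoh (0.31, adjusted p = 0.00524), and none fell. Of 8 macrophage markers Clec4f and Cd5l fell and Marco rose. Without OMT replicates 1 and 2, 3 endothelial, 3 stellate cell and fibroblast and 1 smooth muscle marker fell, 1 hepatocyte marker rose, and 2 macrophage markers fell and 1 rose. Their part in the results was not tested.

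The intestinal difference minus the hepatic one was tested in a fit of all 18 arrays. Of the 29 genes, 5 had a more positive difference in intestine and 2 in liver, against 4.05% and 6.98% of the 14648 genes tested. These were 593 and 1022 genes, and 741 and 730 with quantile normalization. The greatest gap was that of Angptl4, at 1.89 in intestine and -1.35 in liver (3.24 ± 0.40, adjusted p = 3.98e-05), where both tissues passed with opposite signs. Pdk4 followed (2.70 ± 0.37, adjusted p = 0.000131), then Acaa1b (2.22 ± 0.23, adjusted p = 6.04e-06) and Acaa2 (1.32 ± 0.21, adjusted p = 0.000509). Ppara was at 0.57 ± 0.16 (adjusted p = 0.0302), though it passed in neither tissue alone. The Ppara call was lost without intestine OMT replicates 2 or 3, intestine YMT replicate 4, liver OMT replicates 1 or 5, or liver YMT replicates 2 or 3, and without OMT replicates 1 and 2 of both tissues (0.49, adjusted p = 0.0642). Cyp4a14 (-1.80 ± 0.28, adjusted p = 0.000389) and Acadm (-0.68 ± 0.13, adjusted p = 0.00244) had the more positive difference in liver, although Cyp4a14 was under the level filter in intestine and entered the test through liver alone. Slc22a5 (0.02 ± 0.17) and Bdh1 (-0.22 ± 0.15, adjusted p = 0.369) passed in both tissues in the same direction, and no difference between the tissues was detected for either.

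**Figure D4:**
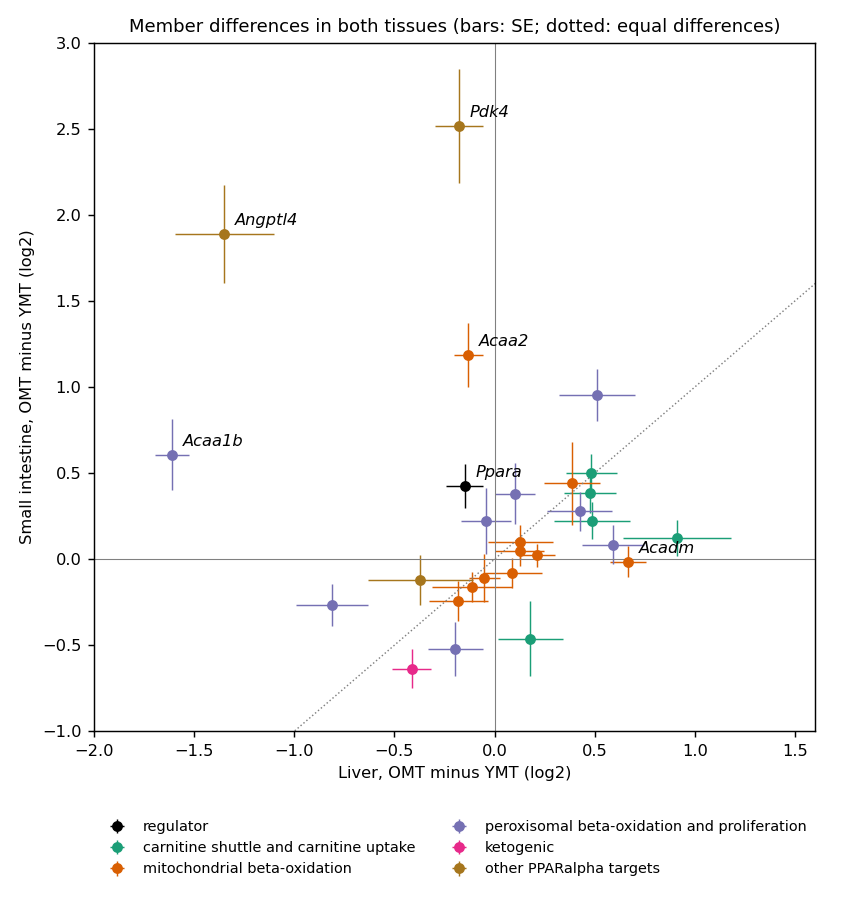
OMT minus YMT on the log2 scale in small intestine (vertical axis) against liver (horizontal axis) for the 28 genes tested in both tissues, with SE as bars and colours for the roles. The dotted line marks equal differences. Named genes differed between tissues, and Angptl4 lies at 1.89 in intestine and -1.35 in liver, in the upper left.

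Further genes of the pathway, 94 in 6 lists, were read from the same fits. In intestine, 4 of 69 tested rose (5.8%, against 1.04% of all genes) and 2 fell (2.9%, against 3.10%). The fall of Ppard, the delta receptor of the same family, was -1.12 ± 0.13 (adjusted p = 0.00412), the 1 change among 9 nuclear receptors and coactivators. The other fall was that of Oxct1 (-1.38 ± 0.22), the enzyme by which tissues use ketone bodies, 1 of 4 in its list. Peroxisomal oxidation and import held 2 rises of 18, Slc27a2 (1.41 ± 0.24), which activates very long chains, and the thioesterase Acot4 (0.77 ± 0.14). The 20 further PPARalpha targets held 2, the lipid droplet protein Cidec (1.56 ± 0.32) and the retinol saturase Retsat (1.23 ± 0.26). None of 14 further mitochondrial and 4 omega-oxidation genes passed by limma, and 7 and 1 of them had an unadjusted p under 0.05.

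In liver, 15 of 80 further genes rose (18.8%, against 10.4% of all genes) and 19 fell (23.8%, against 8.78%). Without OMT replicates 1 and 2, 21 rose (26.2%, against 8.64%) and 15 fell (18.8%, against 7.36%). Peroxisomal oxidation and import had 5 rises and 4 falls of 19, led by Acot4 (1.72 ± 0.12), the coenzyme A hydrolase Nudt7 (-1.78 ± 0.18) and the branched-chain oxidase Acox2 (0.81 ± 0.11). Further PPARalpha targets had 6 and 6 of 23, with the fatty acid carrier Fabp1 at -1.35 ± 0.09, the thioesterase Acot3 at 2.65 ± 0.26 and the epoxygenase Cyp2j6 at -1.21 ± 0.18. Further mitochondrial genes had 2 rises and 3 falls of 16, with Acsl5, which activates long chains, at -1.35 ± 0.13, Hsd17b10 at 0.89 ± 0.16 and the dehydrogenase Acad8 at -0.31 ± 0.09. The coactivators Ppargc1a (-0.73 ± 0.11) and Ppargc1b (-0.52 ± 0.11) fell and the transcription factor Creb3l3 (0.41 ± 0.13) rose, the 3 calls among 9. Ketone body genes had 2 falls of 6, Bdh2 (-0.57 ± 0.11) and Aacs (-1.07 ± 0.28). Omega-oxidation had 1 rise, Cyp4a31 (1.61 ± 0.38), and 2 falls, Cyp4v3 (-0.66 ± 0.07) and Cyp4f14 (-0.46 ± 0.13), of 7. OMT replicates 1 and 2 both lay below the other OMT livers in 43 of the 80 (53.8%, against 17.7% of all genes) and both above in 9 (11.2%, against 16.7%). This pair had been singled out beforehand from the same arrays, so these shares and the counts without the pair are no independent check.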

How the data were processed

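Total RNA (250 ng) of each sample was labelled with biotin and hybridised to 1 Affymetrix whole-transcript array, per the labels' protocols. The authors deposited log2 expression values from RMA, and the submitters' processing notes name Affymetrix Expression Console as the software. No version is given there, and base 2 was inferred from the values, 0.30 to 13.50. RMA narrows differences of dim probe sets. Whether intestine and liver were normalized jointly is unstated, and levels are set side by side within each tissue alone. Of 41345 probe sets, 23521 have 1 gene symbol in the platform annotation, 1814 several and 16010 none here. Symbols were updated by gene identifier from RefSeq, which held 23328.

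Probe sets above the median of their array on 4 or more of a tissue's 9 arrays were tested, with the one of highest mean standing for its gene. Pdk4 in YMT intestines aside, the genes of the set that entered a test exceeded it on all arrays of the tissue. Within a tissue, limma fitted OMT against YMT (version 3.58.1, R 4.3.3), two-sided, and the difference between tissues in 4 groups on 18 arrays, where a gene entered through either tissue. Named further genes are up to 3 of smallest p per list and tissue. Members, lists and alternatives were chosen with earlier results of these data known. No arrays held identical values. The p-values set a difference against the spread among replicates. Whether that includes spread between donors or cages is unknown, since their numbers are not given. The number of arrays limits precision. The fits were also run on simulated arrays with changes of known size. Noise was drawn there independently for each gene and array, so arrays that depart together in many genes are not covered.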

Additional observations from a re-analysis of the deposited data

Results flagged for a closer look

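For 7 genes the OMT minus YMT difference was unequal in the tissues by the test of that difference. The intestinal minus hepatic values were 3.24 for Angptl4, 2.70 for Pdk4, 2.22 for Acaa1b, 1.32 for Acaa2, 0.57 for Ppara, -0.68 for Acadm and -1.80 for Cyp4a14. Cyp4a14 was under the level filter in intestine and entered this test through liver, where it is high, so its value mainly repeats the liver rise.

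Of 120 groups of arrays examined for 1 array far from the rest, 3 held one, and chance gives about 1 in 20 groups. Angptl4 was at 5.75 on YMT intestine replicate 3, while the remaining YMT intestines had 6.44 to 6.56. Bdh1 was at 7.33 on YMT intestine replicate 1, while the rest had 7.09 to 7.12. Hadha was at 10.76 on YMT liver replicate 3 and at 10.78 on the other YMT livers, a gap near the rounding of the deposited values.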

How the results depend on the processing

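With 1 array left out at a time, the set had 4 to 5 rises and 0 to 1 falls in intestine (0 without YMT replicate 2), 2 to 9 rises and 4 falls in liver (2 rises without OMT replicate 5 or YMT replicates 1, 2 or 4), and 4 to 5 higher and 2 to 4 lower in the difference between tissues (4 lower without liver OMT replicate 2). Over all genes the ranges were 37 to 155 rises and 113 to 481 falls in intestine, 928 to 1514 and 872 to 1166 in liver, and 413 to 631 and 692 to 1264 in the difference. The main intestinal counts of 138 and 410 moved by over 1.5 times without OMT replicate 2 (63 and 164) or 3 (50 and 226) or YMT replicate 1 (77 and 209), 2 (37 and 113) or 4 (68 and 170).

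Without OMT replicates 1 and 2, all-gene counts in intestine were 78 and 156, the set had 15 rises in liver and 5 genes lower in the difference, and 618 of all genes were lower there. With all 18 arrays in each fit, intestine had 365 rises and 1080 falls over all genes and 2 falls in the set. With no filter there were 78 and 232. Quantile normalization gave 211 and 398 in intestine, 1156 and 1492 in liver (1388 and 1175 in the main setting) and 741 higher and 730 lower in the difference (593 and 1022). Median centring gave 108 and 514 in intestine and 1125 and 1242 in liver. The causes were not tested. Robust, trended variances, run for every comparison, left each gene of the set on its side of the threshold.

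Replicate numbers were examined as pairs. Same-numbered OMT and YMT deviations correlated at -0.06 to 0.32 in intestine and -0.18 to 0.09 in liver. Pairs of unlike number correlated at -0.38 to 0.28 and -0.20 to 0.26. So few pairs cannot show whether same-numbered samples share more than a number. With the replicate block the liver had 740 rises and 719 falls over all genes and 3 rises in the set, and the rises of Crat, Slc22a5 and Ech1 and the fall of Ehhadh were lost. Only OMT has a replicate 5, so within a tissue the block gives that array no weight in the difference. The block and leaving out OMT replicate 5 gave the same liver differences, 0.77 for Crat, 0.425 for Slc22a5 and 0.5375 for Ech1. They are therefore not separate checks.

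Pdk4, Angptl4, Acaa2 and Pex11a in intestine, and Acadm, Acaa1b, Bdh1, Cyp4a14 and Angptl4 in liver, passed under all 17 alternatives run in their tissue. Slc22a5 in intestine and Crat in liver passed under 7 of 17. Among genes that did not pass, some small differences changed sign. In intestine these were Acadm (0.0084 with quantile normalization, 0.0033 without OMT replicates 1 and 2, -0.0525 to 0.0407 with 1 array left out), Acadvl (-0.0075 with median centring, -0.0075 to 0.080 with 1 array left out), Hadh (-0.0305 with median centring, -0.018 to 0.0453) and Acads (-0.2193 to 0.0507). In liver without OMT replicates 1 and 2 they were Acads (0.0342), Eci1 (0.2233), Decr1 (0.0408), Hsd17b4 (0.145), Decr2 (0.0258) and Vnn1 (0.0642), and with 1 array left out Eci1 spanned -0.2125 to 0.0175 and Hsd17b4 -0.1075 to 0.045. In the difference between tissues, quantile normalization turned Acadvl (0.0256), Acads (0.0359), Hadha (0.0006), Eci1 (0.0548) and Decr1 (0.0679), median centring turned Slc22a5 (-0.0075), and leaving out OMT replicates 1 and 2 turned Slc22a5 (-0.0775), Hsd17b4 (-0.0058) and Vnn1 (-0.1167). With 1 array left out there, Slc22a5 spanned -0.0585 to 0.074, Acadl -0.083 to 0.237, Acads -0.1688 to 0.1012, Hadha -0.137 to 0.058, Eci1 -0.179 to 0.051 and Decr1 -0.152 to 0.0105.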
